A study of Mus musculus with 18 samples.

Results

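Withdrawal of glutamine was followed across the whole transcriptome of endotoxin-tolerant macrophages by setting the 4 libraries labelled as tolerant without glutamine against the 4 labelled as tolerant with glutamine. These are 8 of the series' 18 libraries. Every gene of the count table was a member: of 23052 gene symbols, 17516 had at least 1 count in the tolerant libraries and 12492 had enough counts to be tested. All groups are bone marrow-derived macrophages of C57BL6/J wild type mice, grown for 7 days in 20% L929 conditioned medium, a source of macrophage growth factor, with the rest DMEM and serum, and then made endotoxin tolerant. A further group of 4 tolerant libraries without glutamine but with added α-ketoglutarate (AKG) entered the model only to help estimate the spread between libraries. How much endotoxin was used, for how long, and how long glutamine was withheld are details not given in the sources used here, as is the origin of the replicates. Without a record of separate mice or dishes, p-values measure only the spread between these samples, which may be technical.

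Endotoxin tolerance is the state in which macrophages that have met lipopolysaccharide give a weaker inflammatory response to it later. Glutamine feeds the tricarboxylic acid cycle and supplies nitrogen for nucleotides, asparagine and glutathione. When amino acids run short, the kinase GCN2 slows general translation and favours that of ATF4, a transcription factor that turns on genes for amino acid synthesis, import and tRNA charging. The kinase mTORC1 senses amino acids at the lysosome, and when they are plentiful it promotes the making of ribosomes and lipids.

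Library totals were 35.7 M counts with glutamine (SD 2.42, n = 4) and 30.5 M without it (SD 2.13, n = 4), and the 2 ranges, 32.4 to 37.6 M and 28.3 to 33.4 M, overlapped. In all groups replicates 1 and 2 stood apart from replicates 3 and 4. What the replicate numbers stand for is not labelled. This difference gave the first principal component of the 8 libraries (57.3% of the variance), and the second (26.4%) separated the glutamine groups. The model therefore held a term for the replicate set, meaning replicates 1 and 2 or replicates 3 and 4. A fit without that term called 597 genes in place of 3117, and 88 of the 158 genes that are named here and called lost their call in it, each with the same sign. The part of library depth in the results was not tested. All 13 macrophage markers looked for were detected. Their summed level was 35478 to 44163 CPM (counts divided by the library total in units of 1e6, with edgeR's TMM factors) with glutamine and 31897 to 45864 without. Of the 13, 4 were lower and 0 higher without glutamine: Aif1 (log2 fold change -0.72), the fractalkine receptor Cx3cr1 (-1.21), the Fc receptor Fcgr1 (-0.35) and the integrin Itgam (-0.21). The Itgam call was lost in 6 of the 8 fits that left out 1 library (adjusted p 0.086 to 0.16) and with the replicate block (0.057).

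Glutamine withdrawal changed 3117 of the 12492 tested genes (25.0%; adjusted p under 0.05, edgeR's quasi-likelihood test). Of these 1314 (10.5% of tested genes) were higher without glutamine and 1803 (14.4%) were lower. The median log2 fold change over all tested genes was -0.01, with quartiles of -0.19 and 0.13. Rises were mostly small and falls were more often large. Among the genes that rose, 24.4% changed by less than 0.25 on the log2 scale, 41.2% by 0.25 to 0.5 and 2.13% by more than 2. Among those that fell these shares were 10.9%, 27.1% and 12.7%. Changes above 1 log2 unit were called for 847 genes (6.78% of tested genes), of which 170 rose and 677 fell.

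**Figure D1:**
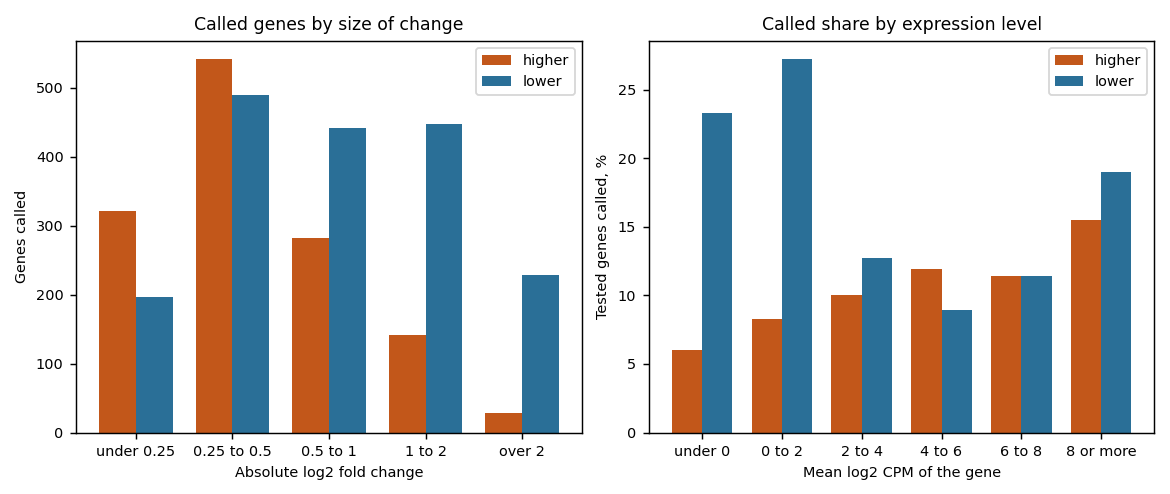
Left, genes called higher (orange) and lower (blue) without glutamine by the absolute log2 fold change; right, the percent of tested genes called in each direction by the gene's mean log2 CPM. Falls outnumber rises above 0.5 on the log2 scale, and the low-expressed genes hold the largest share of falls, 27.2% between 0 and 2 log2 CPM.

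The shares of rises and falls varied with the level of the gene. Of the 1468 genes at 0 to 2 log2 CPM on average, 27.2% fell and 8.24% rose. Of the 3908 genes between 4 and 6, 8.93% fell and 11.9% rose. At 8 or more, 19.0% of 620 genes fell and 15.5% rose. By exon length, 18.1% of genes with 8 kb or more of exon fell and 8.28% rose, while for exons of 1 to 2 kb these shares were 11.8% and 10.3%. Of 12073 protein-coding genes 25.3% were called, and of 285 long noncoding genes 13%. These shares are counts within 1 fit and were not tested against each other, and level and length also set the power to call a gene. Added over all tested genes, 68645 CPM were gained (6.86% of the total) and 72213 lost.

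The changes had the same sign in both replicate sets for 3106 of the 3117 called genes (99.6%), a property that the joint fit favours. No overlap between the groups over all 8 libraries was found for 1543 tested genes (12.4%). Fitted alone, replicates 1 and 2 called 1646 genes higher and 1913 lower, and replicates 3 and 4 called 535 higher and 1121 lower. Both fits called 364 genes higher and 653 lower, and 29 were called in opposite directions. Genes were next read by function in 60 classes with tested members. The remaining 2214 called genes (71.0%) were in none of these classes. Each class count is to be read beside the shares over all tested genes, 10.5% higher and 14.4% lower. Class counts under 10 often moved by more than 1.5 times when 1 library was left out. Where 0 members of a class are reported in a direction, it is by edgeR's test, and the counts by other tools follow at the end of the results by class.

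**Figure D2:**
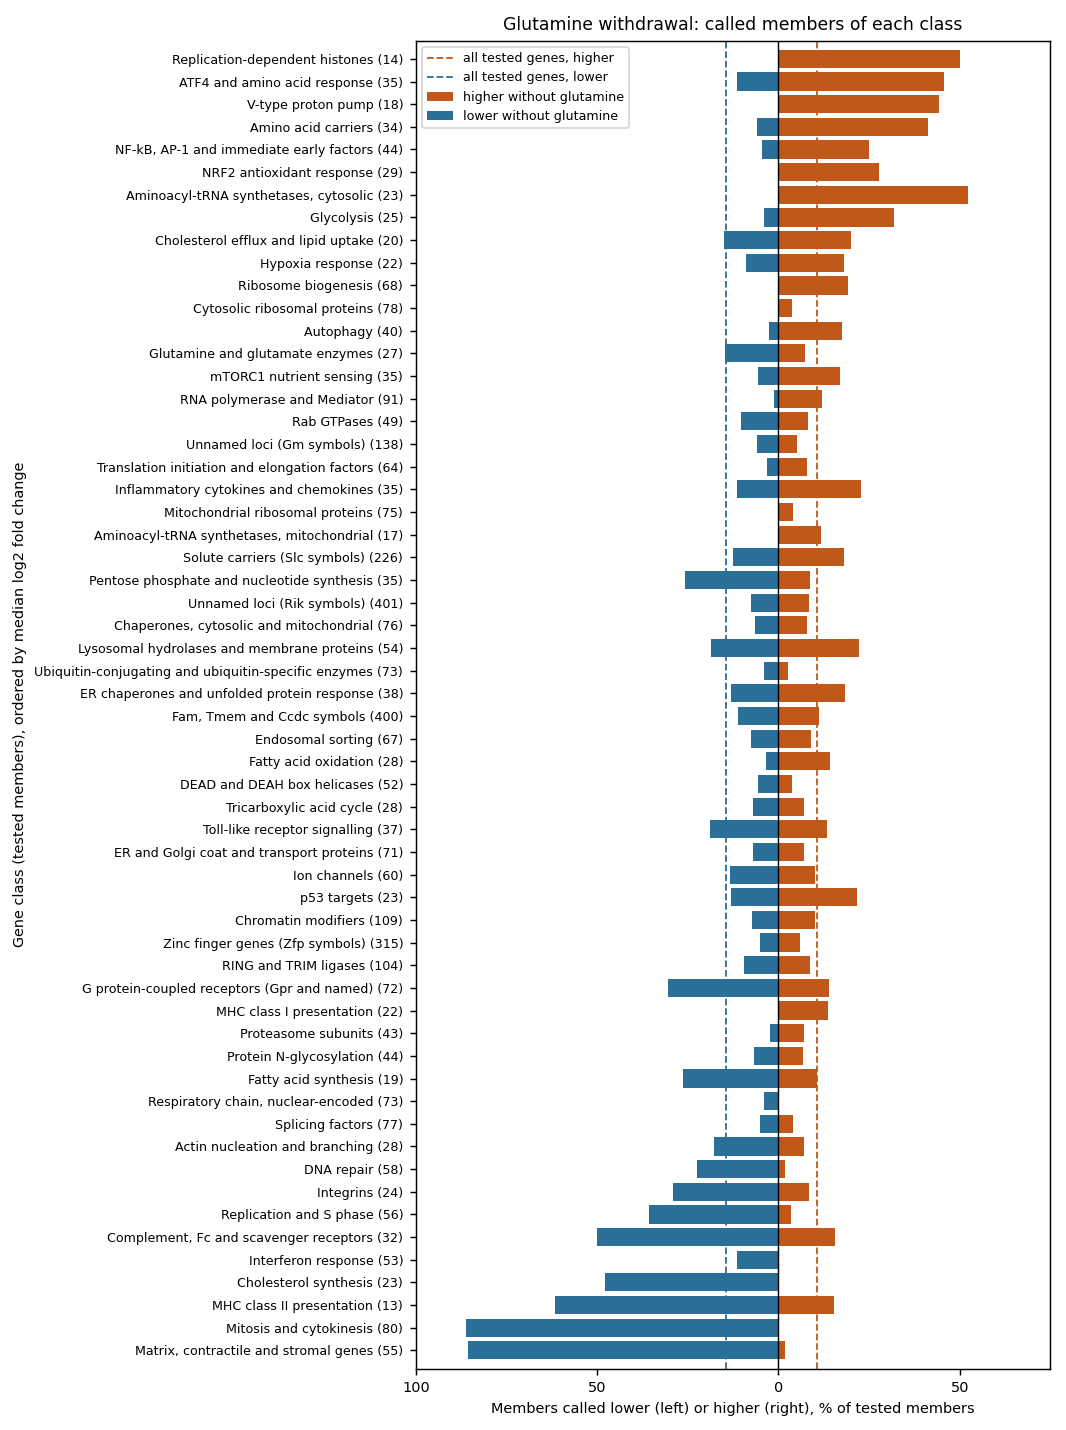
For classes with at least 10 tested members, the percent called lower (blue, left) or higher (orange, right) without glutamine, with the number tested in brackets and classes ordered by their median log2 fold change. Dashed lines give the shares over all tested genes, 14.4% lower and 10.5% higher; stromal and mitotic genes stand at the bottom with 47 of 55 and 69 of 80 members lower, and histones and the ATF4 class at the top.

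The amino acid response was higher without glutamine, but not as a block. Of 35 tested genes of ATF4 and the amino acid response, 16 rose and 4 fell, with a median log2 fold change of 0.41. Without any 1 library 16 or 17 rose, and 1 to 5 fell; without the set term 7 rose. Trib3, a pseudokinase induced by ATF4, stood at 2.55, 2.94, 6.36 and 5.44 CPM in replicates 1 to 4 with glutamine and at 19.7, 26.1, 37.3 and 31.8 CPM without (log2 fold change 2.78, SE 0.23, adjusted p = 7.2e-06). Every library without glutamine was above every library with it. Asns, which makes asparagine from glutamine, read 14.9, 14.3, 38.4 and 36.1 CPM with glutamine and 51.2, 54.8, 65.6 and 66.3 CPM without (1.35, SE 0.26, adjusted p = 0.0025; 0.16 without the set term). Its groups did not overlap, and the rise was 1.86 in replicates 1 and 2 against 0.83 in replicates 3 and 4. Ddit3, which encodes the stress factor CHOP, stood at 25.1, 26, 29.7 and 25 CPM with glutamine and 58.3, 67.2, 56.4 and 47.6 CPM without (1.11, SE 0.13, adjusted p = 7.5e-05), again with no overlap.

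Atf4 itself rose from 182 to 279 CPM on average (0.62, SE 0.07, adjusted p = 7.4e-05; 0.12 without the set term). Its highest library with glutamine, at 231 CPM, was just above its lowest without, at 230 CPM, and within each set the groups were apart. The folate enzyme Mthfd2 (1.25), the stress factor Gadd45a (1.24), the arginine carrier Slc7a1 (1.53), Atf3 (0.41) and Nupr1 (0.49), both transcription regulators of stress, rose as well. An enzyme each of serine and proline synthesis went the other way, while other enzymes of these pathways in the class were not called. Psat1, which makes serine and uses glutamate, fell by 0.58 on the log2 scale (adjusted p = 0.018), and Pycr1, the last step to proline, fell by 0.65 (adjusted p = 0.0049). The Psat1 call was lost without replicate 3 or 4 with glutamine, or without replicate 4 lacking it (adjusted p 0.05 to 0.063). In replicates 1 and 2 alone neither Psat1 (-0.24, adjusted p = 0.2) nor Pycr1 (-0.32, adjusted p = 0.39) was called.

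**Figure D3:**
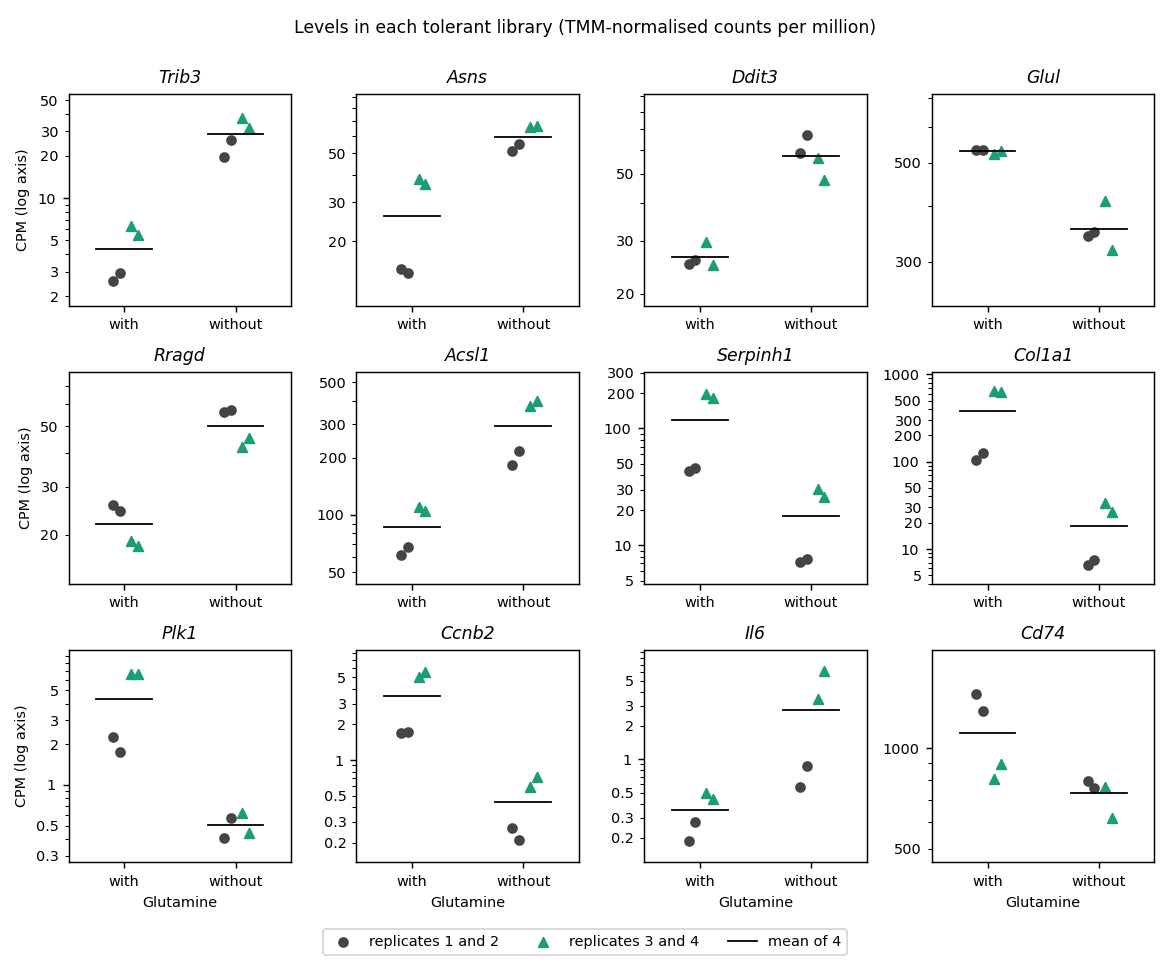
Level of 12 genes in each of the 8 libraries on log axes, in TMM-normalised CPM, with circles for replicates 1 and 2, triangles for replicates 3 and 4 and a line for the mean of 4. Trib3, Asns, Ddit3, Rragd, Acsl1 and Il6 are higher without glutamine and Glul, Serpinh1, Col1a1, Plk1, Ccnb2 and Cd74 lower, with no overlap between the groups in any of the 12.

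ATF4 binds composite sites in promoters, and the letters TGATGNAA were searched on both strands of the 250 bases before each RefSeq transcription start (GRCm38.p6). They occurred in 8 of the 30 genes of the ATF4 class that matched the RefSeq table (26.7%), in 2.49% of 9637 tested genes and in 3.45% of all 32851 promoters. Each match is shown because the genes that carry it did not move as 1 group. They are given with 8 bases on each side, 5′ to 3′ on the strand that reads TGATGNAA, with the motif in capitals.
Atf3, chr1:191183428-191183451, plus strand, higher: ggacttggTGATGCAAgtgcgaga
Nupr1, chr7:126625565-126625588, plus strand, higher: gccctgtcTGATGCAAtctggccc
Asns, chr6:7693217-7693240, minus strand, higher: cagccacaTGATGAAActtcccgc
Pycr1, chr11:120643836-120643859, minus strand, lower: cctgtgtaTGATGCAAtgcacaag
Chac1, chr2:119351041-119351064, minus strand, not called: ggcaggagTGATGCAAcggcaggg
Vldlr, chr19:27216812-27216835, minus strand, not called: aggagcgcTGATGCAActattgct
Slc7a11, first site, chr3:50443664-50443687, minus strand, not called: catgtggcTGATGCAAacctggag
Slc7a11, second site, chr3:50443645-50443668, plus strand, not called: ctgcatgaTGATGCAAattctcca
Jdp2, chr12:85599375-85599398, plus strand, not called: gccggggcTGATGCAAcccgtccc
Of these 8 genes, 3 rose, 1 fell and 4 were not called. A match is a description of the letters and no evidence of binding. Chac1, a glutathione-degrading enzyme, read 1.22 (SE 0.52, adjusted p = 0.11). It was called without replicate 4 lacking glutamine (1.61, adjusted p = 0.044), by DESeq2 (1.35, adjusted p = 0.031) and in replicates 1 and 2 alone (2.62, adjusted p = 0.009). The cystine carrier Slc7a11 read 0.93 (SE 0.44, adjusted p = 0.16). It was called without replicate 3 lacking glutamine (1.18, adjusted p = 0.042), in a fit of only the 8 libraries with and without glutamine (0.97, adjusted p = 0.027) and in replicates 1 and 2 alone (0.78, adjusted p = 0.03). The lipoprotein receptor Vldlr read -0.36 (adjusted p = 0.06; -0.37 and 0.038 by DESeq2) and the AP-1 family gene Jdp2 0.36 (adjusted p = 0.16). In Jdp2 the sets differed, with 0.89 (adjusted p = 0.00052) in replicates 1 and 2 alone and -0.11 (adjusted p = 0.56) in replicates 3 and 4 alone (adjusted p of the difference = 0.01). The whole Asns window, from 250 bases upstream to the base before the start, shows a site that begins 23 bases before the start.
Asns promoter, chr6:7693210-7693459, minus strand: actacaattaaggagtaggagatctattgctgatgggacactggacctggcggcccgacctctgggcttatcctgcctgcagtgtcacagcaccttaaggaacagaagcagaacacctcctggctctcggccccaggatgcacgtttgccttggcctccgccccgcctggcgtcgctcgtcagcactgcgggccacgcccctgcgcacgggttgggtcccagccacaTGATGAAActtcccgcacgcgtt
The windows of Trib3 and Atf4 hold no match to these letters.

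Of 23 cytosolic aminoacyl-tRNA synthetases 12 rose and 0 fell, with a median of 0.16, whereas 2 of 17 mitochondrial ones rose and 0 fell, with a median of 0.02. The difference between the 2 classes was not tested. Without replicate 2 with glutamine 7 of the 23 rose, and 4 rose without the set term or in replicates 3 and 4 alone. Aars, the alanyl enzyme, stood at 128, 131, 171 and 157 CPM with glutamine and at 198, 216, 308 and 273 CPM without (0.75, SE 0.08, adjusted p = 4.6e-05), with no overlap. Sars (0.58), Cars (0.47), Yars (0.55) and Eprs (0.55) followed. Carriers of amino acids rose in 14 of 34 tested and fell in 2, with a median of 0.22. The neutral amino acid carrier Slc38a1 rose by 0.54, the aromatic carrier Slc16a10 by 0.44 and the creatine carrier Slc6a8 by 0.91, while Slc7a7, which exports cationic amino acids, fell by 0.32 on the log2 scale.

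Of 27 enzymes that make or use glutamine and glutamate, 2 rose (7.41%) and 4 fell (14.8%). These shares lie near or below those of all tested genes, 10.5% and 14.4%. Leaving out 1 library gave 1 to 4 that rose, the 4 without replicate 3 lacking glutamine. Glutamine synthetase, Glul, read 534, 535, 524 and 531 CPM with glutamine and 343, 349, 410 and 319 CPM without (-0.58, SE 0.07, adjusted p = 0.00011). The 4 libraries with glutamine lay close together and above all 4 without. Bcat1, the cytosolic transaminase of branched-chain amino acids, fell from 11.9 to 4.84 CPM (-1.34, SE 0.15, adjusted p = 6.2e-05), and Ctps, the glutamine-using CTP synthase, from 12.6 to 8.01 CPM (-0.61, SE 0.09). Among 35 genes of nutrient sensing by mTORC1, 6 rose and 2 fell (median 0.06). Rragd, a Rag GTPase that ties mTORC1 to the lysosome, stood at 25.8, 24.4, 18.9 and 18.2 CPM with glutamine and at 56.4, 57.3, 41.8 and 45.1 CPM without (1.20, SE 0.09, adjusted p = 3.7e-06). The folliculin partner Fnip2 rose by 0.68. The sestrins, which restrain mTORC1, included the 2 falls, Sesn1 (-0.86, SE 0.08) and Sesn3 (-0.79, SE 0.13).

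Genes of cell division were lower without glutamine. Of 80 tested genes of mitosis and cytokinesis, 69 fell (86.2%, beside 14.4% of all tested genes) and 0 rose, with a median of -1.37. The groups did not overlap for 59 of the 80 (73.8%, beside 12.4% of all tested genes). Without any 1 library 62 to 69 fell, and without the set term 50 fell. Plk1, a mitotic kinase, stood at 2.27, 1.75, 6.61 and 6.63 CPM with glutamine and at 0.402, 0.569, 0.621 and 0.444 CPM without (-2.93, SE 0.28, adjusted p = 2.1e-05). Replicates 3 and 4 with glutamine were the highest and all libraries without it lay below 1 CPM. Ccnb2, a mitotic cyclin, read 1.68, 1.72, 5.06 and 5.55 CPM with glutamine and 0.268, 0.21, 0.588 and 0.718 CPM without (-2.93, SE 0.19, adjusted p = 9.1e-07). The spindle protein Tpx2 fell by 1.52, the midzone protein Prc1 by 2.05, the centromeric histone Cenpa by 1.08 and the topoisomerase Top2a by 1.92 on the log2 scale. The proliferation marker Mki67 read 31.4, 28.5, 29.8 and 58.3 CPM with glutamine and 23.6, 23.9, 5.91 and 12.5 CPM without (-1.30, SE 0.38, adjusted p = 0.028). Its call was lost without replicate 4 with glutamine (-0.87, adjusted p = 0.055) or without replicate 4 lacking it (-1.23, adjusted p = 0.073).

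The mitotic median was -0.83 in replicates 1 and 2 and -1.90 in replicates 3 and 4, and 10 of the 80 genes differed between the sets in the test of that difference. In bulk RNA, fewer dividing cells and less of these RNAs per cell cannot be told apart. The lowering carried little RNA: the called mitotic genes summed to 532 to 794 CPM with glutamine and to 196 to 376 CPM without. DNA replication genes fell less, 20 of 56 with 2 rising and a median of -0.21. The ribonucleotide reductase subunits fell by 2.78 (Rrm2) and 0.57 (Rrm1) on the log2 scale. The helicase subunit Mcm4 (-0.39) and the primase subunit Prim2 (-0.51) also fell, and the licensing factor Cdt1 rose (0.46, SE 0.06). In DNA repair 13 of 58 genes fell, among them Timeless (-0.59), and 1 rose. Of 61 replication-dependent histone genes listed, only 14 had enough counts to be tested. Of these, 7 rose and 0 fell, with a median of 0.43 (4 rose without replicate 4 with glutamine). Replicates 1 and 2 alone called 3 higher and 1 lower, and replicates 3 and 4 alone called 5 higher and 0 lower. Hist1h1c, a linker histone, rose from 84.4 to 145 CPM (0.79, SE 0.10) and Hist2h2be from 12.5 to 18.5 CPM (0.55, SE 0.09). Of 23 p53 targets 5 rose, among them Mdm2 (0.43), and 3 fell.

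The CCAAT box, bound by NF-Y, and the element TTTGAA, bound through the DREAM complex, occur in promoters of mitotic genes, but not in all of them. In the 250 bases before the start, on either strand, TTTGAA occurred in 25 of 66 mitotic genes with a RefSeq promoter (37.9%), in 12.5% of tested genes and in 16.0% of all promoters. CCAAT occurred in 44 of the 66 (66.7%), in 40.5% of tested genes and in 33.8% of all promoters. These 2 windows belong to the members with the smallest p that the promoter table held. They are shown as examples of members that fell together, with both motifs in capitals on either strand.
Ccnb2 promoter, chr9:70421555-70421804, minus strand: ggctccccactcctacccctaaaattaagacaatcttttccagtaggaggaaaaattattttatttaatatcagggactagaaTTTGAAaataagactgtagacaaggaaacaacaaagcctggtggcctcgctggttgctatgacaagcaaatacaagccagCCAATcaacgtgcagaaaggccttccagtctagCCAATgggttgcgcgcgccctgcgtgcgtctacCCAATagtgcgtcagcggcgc
Ckap2l promoter, chr2:129297213-129297462, minus strand: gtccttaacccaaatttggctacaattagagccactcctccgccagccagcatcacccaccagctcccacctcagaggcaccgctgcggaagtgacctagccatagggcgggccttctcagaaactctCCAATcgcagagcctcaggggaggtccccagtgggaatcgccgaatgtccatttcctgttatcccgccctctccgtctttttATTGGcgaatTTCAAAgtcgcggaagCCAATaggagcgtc
Each window holds 1 TTTGAA and 3 CCAAT matches. In the Ccnb2 window the TTTGAA lies upstream of all 3 CCAAT matches. These matches describe the letters and are no evidence of binding. Ckap2l, which encodes a spindle protein, read 2.21, 2.13, 8.93 and 8.59 CPM with glutamine and 0.335, 0.449, 0.915 and 1.4 CPM without (-2.74, SE 0.20, adjusted p = 3.2e-06).

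Matrix, contractile and other stromal genes had the lowest median of the 60 classes. Of 55 tested, 47 fell and 1 rose, with a median of -1.83. Without any 1 library 45 or 46 fell, and without the set term 18 fell. Col1a1, a chain of type I collagen, read 104, 125, 651 and 634 CPM with glutamine and 6.53, 7.46, 33.8 and 26.4 CPM without (-4.24, SE 0.20, adjusted p = 1.1e-07). Serpinh1, the collagen chaperone, had the smallest adjusted p of all tested genes, with 43.2, 46.1, 198 and 182 CPM against 7.19, 7.67, 30.5 and 25.7 CPM (-2.68, SE 0.07, adjusted p = 3.8e-09; 0.068 without the set term). In both genes replicates 3 and 4 stood far above replicates 1 and 2 in either group, and within each set the groups were apart. Sparc (-3.07), Col12a1 (-3.02), Col6a3 (-4.16), Col5a2 (-1.92), the smooth muscle actin Acta2 (-3.14), biglycan Bgn (-1.48) and fibronectin Fn1 (-0.87) fell too. The class median was -2.07 in replicates 1 and 2 and -1.80 in replicates 3 and 4.

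The members not called included Spp1, Thbs1 and Mmp14, picked here from 7. Whether called and uncalled members differ in the cells that express them was not tested. The osteopontin gene Spp1 read 1033, 910, 701 and 730 CPM with glutamine and 2603, 2252, 619 and 832 CPM without (0.72, SE 0.29, adjusted p = 0.096). It was called without replicate 3 lacking glutamine (0.96, adjusted p = 0.017), by DESeq2 (0.71, adjusted p = 0.042) and in replicates 1 and 2 alone (1.32, adjusted p = 0.0078). Thrombospondin Thbs1 (0.12, adjusted p = 0.77) and the protease Mmp14 (0.22, adjusted p = 0.36) were not called. Cav1, of membrane caveolae, was the rise (1.28, SE 0.16). Summed, the 47 members that fell took 1952 to 8164 CPM with glutamine and 724 to 2175 CPM without. The 7 uncalled members took 2244 to 2968 CPM and 2363 to 4885 CPM.

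Marker lists of other cell types went in both directions. The fibroblast list summed to 303 to 1590 CPM with glutamine and 49.6 to 199 CPM without (7 of 8 tested lower), and the smooth muscle list to 132 to 660 CPM and 18.9 to 74.2 CPM (4 of 4 lower). Of these lists, 9 of 10 and 5 of 7 genes are also in the stromal class, so they are no separate evidence. The endothelial list summed to between 35.4 and 58.9 CPM with glutamine and between 77.1 and 119 CPM without, with Vwf as its 1 call (1.89, SE 0.21). Of the 6 epithelial markers, Krt8, Krt18, Krt5 and Krt14 had 0 counts in all 8 libraries. The lists for neutrophils, dendritic cells and T and NK cells had no called gene among 3, 4 and 1 tested. In the osteoblast list, which shares no gene with the stromal class, 1 of 2 tested was lower (median -1.99), and in the erythroid and megakaryocyte list 1 of 3 was lower. In the mast cell and basophil list 1 of 2 was higher, and so was the 1 tested adipocyte marker, Fabp4 (1.16). The part of other cell types in the result was not tested. In these data fewer stromal cells and less of their RNA per cell cannot be told apart, and neither can they be told from lower matrix expression in macrophages.

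**Figure D4:**
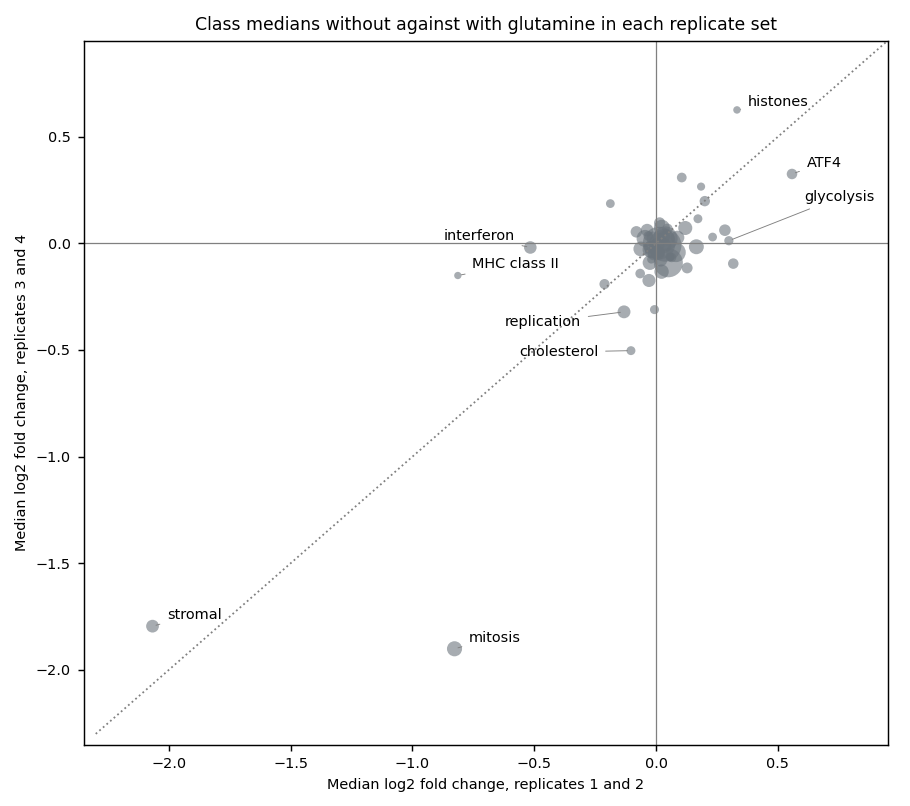
Median log2 fold change without against with glutamine of classes with at least 10 tested members, in replicates 1 and 2 (horizontal) and replicates 3 and 4 (vertical); the dotted line marks equal values and the dot area grows with the number of members. Stromal genes lie near the line, mitotic and cholesterol genes fell further in replicates 3 and 4, and interferon and MHC class II genes fell further in replicates 1 and 2.

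Inflammatory genes split by kind. Of 35 cytokine and chemokine genes 8 rose and 4 fell, with a median of 0.03. Il6 was at 0.187, 0.273, 0.498 and 0.438 CPM with glutamine and at 0.569, 0.869, 3.43 and 6.08 CPM without (2.78, SE 0.47, adjusted p = 0.0012), low in all libraries but without overlap. Il1a read 0.374, 0.518, 1.69 and 1.68 CPM with glutamine and 7.16, 7.82, 3.59 and 8.34 CPM without (2.66, SE 0.42, adjusted p = 0.00078). Acod1, which makes itaconate, read 28.2, 37.1, 58.7 and 54.9 CPM with glutamine and 107, 116, 138 and 156 CPM without (1.55, SE 0.20, adjusted p = 0.0002). The neutrophil chemokines Cxcl1 (2.04), Cxcl2 (1.18) and Cxcl3 (1.31) rose. Tnf was 0.49 (SE 0.17, adjusted p = 0.051), just outside the threshold, and was called with the replicate block (0.49, adjusted p = 0.031). DESeq2 (adjusted p = 0.023), limma-voom (0.04), the fit without a filter (0.037) and that of only the 8 libraries (0.012) called it too. Neither set alone called it (0.079 and 0.092), nor did any fit that left out 1 library. Il10, an anti-inflammatory cytokine, fell by 0.84 on the log2 scale (SE 0.21, adjusted p = 0.011).

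Ccl8, a monocyte chemokine, fell (-1.59, SE 0.32, adjusted p = 0.0033). It went from 129 and 115 CPM to 30.1 and 21.6 CPM in replicates 1 and 2, and was 2.74 and 2.35 CPM against 2.29 and 1.91 CPM in replicates 3 and 4. Factors of the NF-κB and AP-1 response rose in 11 of 44 genes and fell in 2, with a median of 0.19 (7 rose without replicate 1 with glutamine). The phosphatase Dusp4 rose by 1.92 and the NF-κB inhibitors Tnfaip3 by 0.97 and Tnip1 by 0.49. In Toll-like receptor signalling 5 of 37 genes rose (13.5%) and 7 fell (18.9%), near the 10.5% and 14.4% of all tested genes. The kinase Irak2 (0.75) was among the rises. The receptors Tlr9 (-1.02) and Tlr1 (-0.67) and the accessory protein Ly86 (-0.70) were among the falls. Of 53 interferon-response genes, 6 fell and 0 rose, a share of falls (11.3%) below that of all tested genes. Their median was -0.25, at -0.52 in replicates 1 and 2 and -0.02 in replicates 3 and 4, and 9 of the 53 differed between the sets. Replicates 1 and 2 alone called 44 lower, and replicates 3 and 4 alone called 2 lower and 4 higher. The count of falls ranged from 1, without replicate 1 with glutamine or replicate 2 lacking it, to 22, without replicate 4 lacking it. Ifi27l2a fell in both sets (-0.78 and -0.68; adjusted p = 0.00049 over both).

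Antigen presentation by MHC class II was lower: 8 of 13 genes fell and 2 rose, with a median of -0.56. Without the set term 0 of the 13 fell, and replicates 3 and 4 alone also called 0 lower, against 10 in replicates 1 and 2 alone. Cd74, the invariant chain, read 1449, 1290, 809 and 899 CPM with glutamine and 796, 762, 765 and 618 CPM without (-0.56, SE 0.11, adjusted p = 0.0032; 0.14 without the set term). The lowest library with glutamine was just above the highest without. H2-Eb1 fell by 0.82, H2-Aa by 0.65 and H2-Ab1 by 0.58 on the log2 scale. The rises were the co-stimulators Cd86, from 16.0 to 27.6 CPM (0.80, SE 0.12), and Cd80 (0.39, adjusted p = 0.031), whose call was lost in 4 of the 8 fits that left out 1 library (adjusted p 0.068 to 0.096) and with the replicate block (0.056). In MHC class I presentation 3 of 22 genes rose (13.6%, beside 10.5% of all tested genes), among them H2-Q6 (0.68), and 0 fell. The H2 genes are near-identical in part, so counts may be split between them.

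Receptors for complement, antibodies and scavenged ligands fell in 16 of 32 genes and rose in 5 (median -0.24). The mannose receptor Mrc1 read 1307, 1198, 460 and 536 CPM with glutamine and 681, 610, 150 and 224 CPM without (-1.18, SE 0.14, adjusted p = 0.00012). It was lower in both sets, and the sets themselves lay further apart than the groups. Cd163, which takes up haemoglobin, fell by 1.10, the scavenger receptor Stab1 by 0.62, the apoptotic-cell receptor Axl by 0.88 and the complement subunits C1qa by 0.66 and C1qb by 0.62 on the log2 scale. Clec4e, a receptor for mycobacterial lipids, went up from 92.2, 102, 108 and 105 CPM to 253, 287, 299 and 490 CPM (1.69, SE 0.15, adjusted p = 1.4e-05). Surface receptors coupled to G proteins fell in 22 of 72 genes and rose in 10. The chemokine receptor Ccr1 (1.14), the formyl peptide receptor Fpr1 (1.52) and Adgrl2 (0.80) rose, and Ccr2 (-1.03) and Gpr155 (-1.08) fell. Integrins fell in 7 of 24, among them Itga6 (-0.80), and rose in 2, among them Itgb7 (1.13).

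Sterol synthesis was lower, while some genes that store or activate lipids rose. Of 23 genes of cholesterol synthesis 11 fell and 0 rose, with a median of -0.31, and 1 of the 23 was above 0. Without replicate 4 with glutamine 6 fell, without replicate 4 lacking it 7 fell, and without the set term 1 fell. The median was -0.10 in replicates 1 and 2 and -0.50 in replicates 3 and 4. Stard4, a sterol carrier, read 24.5, 27.9, 39.5 and 38.4 CPM with glutamine and 16.6, 15.6, 19.2 and 21.7 CPM without (-0.81, SE 0.12, adjusted p = 0.00038; 0.1 without the set term). Its groups did not overlap. The reductase Tm7sf2 (-0.50) and the kinase Pmvk (-0.50) fell. In fatty acid synthesis 5 of 19 fell, among them the desaturase Fads2 (-1.07), and 2 rose. Acsl1, which activates fatty acids, had 61.9, 67.9, 110 and 105 CPM with glutamine and 183, 218, 373 and 397 CPM without (1.74, SE 0.12, adjusted p = 2.1e-06), with no overlap. In cholesterol efflux and lipid uptake 4 of 20 genes rose and 3 fell. The rises included the lipid droplet protein Plin2 (0.67), Soat1 (0.47), which stores cholesterol as ester, and the fatty acid carrier Fabp4 (1.16). Of the 28 genes of fatty acid oxidation, which include Acsl1, 4 rose (14.3%) and 1 fell (3.57%), beside 10.5% and 14.4% of all tested genes.

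Glycolysis genes rose in 8 of 25 and fell in 1, with a median of 0.15. The median was 0.30 in replicates 1 and 2 and 0.01 in replicates 3 and 4. The lactate carrier Slc16a1 rose by 0.74, the enolase Eno2 by 1.17 and Pgam1 by 0.45. In the hypoxia response 4 of 22 genes rose and 2 fell. Vegfa, a growth factor of blood vessels that is induced by low oxygen, stood at 75.9, 99.4, 153 and 161 CPM with glutamine and at 246, 307, 209 and 196 CPM without (0.98, SE 0.23, adjusted p = 0.0081). It rose by 1.66 in replicates 1 and 2 and by 0.37 in replicates 3 and 4. Genes of the tricarboxylic acid cycle, where glutamine carbon enters, were close to the all-gene median (-0.01): 2 of 28 rose and 2 fell. The falls were fumarase, Fh1 (-0.74, SE 0.15, adjusted p = 0.0036), and Idh1 (-0.26, adjusted p = 0.01), the cytosolic isocitrate dehydrogenase, listed here with the cycle. In replicates 3 and 4 alone neither was called (-0.29, adjusted p = 0.18, and -0.30, adjusted p = 0.051). Of 73 nuclear genes of the respiratory chain, 0 rose and 3 fell, with a median of -0.05: Ndufs8 (-0.35), Cox7b (-0.20) and Uqcr11 (-0.24). The Cox7b and Uqcr11 calls were lost in 5 and 6 of the 8 fits that left out 1 library (adjusted p 0.058 to 0.11 and 0.083 to 0.16) and with the replicate block (0.053 and 0.077). The genes of the mitochondrial genome were not analysed here.

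The translation machinery moved little and almost only upward. Of 78 cytosolic ribosomal proteins 3 rose and 0 fell: Rpl23 (0.25), Rpl4 (0.23) and Rps15a (0.21). Their median was 0.08, and 66 of the 78 were above 0 against 47.6% of all tested genes, but the median was 0.17 in replicates 1 and 2 and -0.02 in replicates 3 and 4. Replicates 1 and 2 alone called 28 of the 78 higher and replicates 3 and 4 alone called 0, and without replicate 4 lacking glutamine 11 rose. Many ribosomal proteins have processed pseudogenes that can take reads. Ribosome biogenesis genes rose in 13 of 68 and fell in 0 (median 0.09), among them the RNA polymerase I subunit Polr1a (0.30). Without the set term 0 rose, replicates 1 and 2 alone called 10 higher and replicates 3 and 4 alone 1, and leaving out 1 library gave 9 to 19. The Polr1a call was lost without the set term (adjusted p = 0.73) and in replicates 3 and 4 alone (0.17). Mitochondrial ribosomal proteins rose in 3 of 75 and fell in 0 (median 0.03), with Mrpl24 at 0.29. Initiation and elongation factors rose in 5 of 64, among them Eif1 (0.37), and fell in 2, among them the elongation kinase Eef2k (-0.54). All these shares lie near or below the background of 10.5% higher and 14.4% lower, apart from the 19.1% of ribosome biogenesis genes that rose.

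Protein turnover and the lysosome differed by part. Of 43 proteasome subunits 3 rose (6.98%) and 1 fell (2.33%), shares below those of all tested genes, with a median of -0.04. Leaving out any 1 library other than replicate 3 lacking glutamine gave 0 that fell, and without that replicate 5 fell. In autophagy 7 of 40 rose and 1 fell. The receptor Sqstm1 read 399, 398, 627 and 560 CPM with glutamine and 608, 647, 1308 and 1145 CPM without (0.85, SE 0.09, adjusted p = 3.6e-05; 0.13 without the set term), and Optn rose by 0.75. The V-type proton pump, which acidifies lysosomes, rose in 8 of 18 subunits and fell in 0, with a median of 0.22, 0.18 in replicates 1 and 2 and 0.27 in replicates 3 and 4. Atp6v1c1 read 138, 143, 180 and 174 CPM with glutamine and 229, 245, 278 and 287 CPM without (0.71, SE 0.08, adjusted p = 5.3e-05). Lysosomal hydrolases and membrane proteins rose in 12 of 54 and fell in 10. The protease Ctsk (1.11) and the cholesterol exporter Npc1 (0.43) rose and the protease Ctsc fell by 0.65 on the log2 scale. NRF2 targets of the antioxidant response rose in 8 of 29 and fell in 0 (median 0.18), among them Gstm1 (0.61); 5 rose without replicate 2 lacking glutamine.

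Of 76 chaperones outside the endoplasmic reticulum (ER), 6 rose (7.89%) and 5 fell (6.58%). These shares lie below those of all tested genes, 10.5% and 14.4%. Without replicate 3 lacking glutamine 12 rose and 10 fell, and without replicate 3 or 4 with glutamine 3 fell. The mitochondrial chaperones Hspa9 (0.82) and Dnaja3 (0.52) rose and the small heat shock protein Hspb1 (-1.95) and Hspa1b (-1.32) fell. In the ER, 7 of 38 genes rose (18.4%) and 5 fell (13.2%). The stress sensor Ern1 rose by 0.54, while the folding enzymes Pdia3 (-0.48) and Pdia4 (-0.44) and the chaperone Calr (-0.40) fell. The median of these ER genes was 0.13 in replicates 1 and 2 and -0.12 in replicates 3 and 4. Machinery of gene expression stayed near the background or under it. RNA polymerase and Mediator genes rose in 11 of 91 (6 with the replicate block, and 6 or 7 without replicate 2, 3 or 4 with glutamine or replicate 1 or 2 lacking it) and fell in 1, splicing factors rose in 3 of 77 and fell in 4, and zinc finger genes with Zfp symbols rose in 19 of 315 and fell in 16. These zinc finger counts were 12 and 10 without replicate 2 of either group and 15 and 10 with the replicate block, and 9 or 8 fell without replicate 3 or 4 with glutamine. Chromatin modifiers rose in 11 of 109 (7 without replicate 2 lacking glutamine), among them the histone H4 methyltransferase Kmt5a (0.68) and the demethylase Kdm5b (0.34), and fell in 8 (16 without replicate 3 lacking glutamine), among them Ezh2 (-0.52) and Smarca2 (-0.40). Loci named only by Rik symbols rose in 34 of 401 and fell in 30 (16 to 19 without replicate 3 or 4 with glutamine or replicate 1 lacking it), and those with Gm symbols rose in 7 of 138 and fell in 8.

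The counts of 0 in a direction were read again at an unadjusted p under 0.05 and by other tools. For mitosis, cholesterol synthesis and the interferon response 0 members were higher at that unadjusted p, and for cytosolic synthetases, cytosolic ribosomal proteins, histones and NRF2 targets 0 were lower. At that p, 2 subunits of the proton pump, 2 MHC class I genes, 2 mitochondrial synthetases, 4 mitochondrial ribosomal proteins and 1 ribosome biogenesis gene were lower and 1 respiratory chain gene was higher. DESeq2 called 1 mitochondrial synthetase lower and 0 in each of the other cases, and limma-voom called 0 in all of them.

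Among well-expressed genes (mean log2 CPM 5 or more) the 10 smallest p-values among rises belonged, beside Rragd, Acsl1 and Clec4e, to genes of several functions. Osbpl3, a sterol-binding protein, rose from 22.6, 23, 45.5 and 44.9 CPM to 47.5, 50.1, 81.8 and 92.5 CPM (1.02, SE 0.07, adjusted p = 1.2e-06), with no overlap. The membrane fusion protein Stx3 (0.68), the semaphorin receptor Plxna1 (0.97), the GTP-binding protein Gtpbp2 (0.69), the rhomboid protease Rhbdd1 (0.64), the metallothionein Mt1 (0.72) and the phosphodiesterase Gdpd1 (0.54) made up the rest. Of the 10 falls, 7 were stromal genes described above. The others were the ubiquitin ligase Nedd4 (-1.82), Prune2 (-1.46) and Ctla2b (-1.13). Ctla2b was 174, 164, 168 and 173 CPM with glutamine and 75.6, 73.1, 84.8 and 77.3 CPM without (SE 0.05, adjusted p = 9.7e-08), a fall of 1.19 in replicates 1 and 2 and 1.07 in replicates 3 and 4 on the log2 scale. Ctla2b overlaps 3 other annotated genes on its strand and has a close paralog, so its counts are less certain.

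By the amount of RNA, few abundant genes carried much of the gain, but not of the loss. Of the 44156 CPM that called genes gained, 16659 lay in 5 genes. Ferritin heavy chain, Fth1, which stores iron, read 18584, 21225, 37059 and 28900 CPM with glutamine and 27187, 29936, 46251 and 37768 CPM without (0.44, SE 0.10, adjusted p = 0.0089). It was higher without glutamine within each set, with overlap across sets. Gpnmb, a glycoprotein of lysosomes, rose from 7651 to 10724 CPM (0.47), and the acute-phase protein Saa3 from 3791 to 5600 CPM (0.57). The saposin precursor Psap (0.28, adjusted p = 0.024) and the pore-forming Mpeg1 (0.23, adjusted p = 0.038) rose too. Psap was lost without replicate 1, 3 or 4 with glutamine (adjusted p 0.055 to 0.063), and Mpeg1 in 5 of the 8 such fits (0.057 to 0.11) and with the replicate block (0.074). The largest losses were of Sepp1, a selenium carrier, from 3563 to 2106 CPM (-0.85, SE 0.10), and of Apoe, which carries lipids, from 5410 to 4254 CPM (-0.34, adjusted p = 0.017). Apoe was lost without replicate 3 with glutamine (-0.31, adjusted p = 0.06) or replicate 1 lacking it (-0.30, adjusted p = 0.07). C1qb, Itm2b (-0.32) and Stab1 completed these 5 losses, which summed to 5060 of the 44598 CPM that called genes lost.

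The effect of glutamine differed between the replicate sets for 309 genes (2.47% of tested genes; edgeR's test of the interaction). Of these, 219 were more negative in replicates 3 and 4 and 90 more positive, and 174 had opposite signs in the sets. The count rested on single libraries: it was 53 to 73 without any 1 of the libraries with glutamine or without replicate 2 lacking it, 117 without replicate 1 lacking it, 537 without replicate 3 lacking it and 2291 without replicate 4 lacking it. The 5 smallest p-values belonged to Pilra, Ikbke, Ccl6, Cnn2 and Pilrb2. Ccl6, a chemokine, read 161, 155, 131 and 140 CPM with glutamine and 274, 313, 84.5 and 72.7 CPM without, a change of 0.90 in replicates 1 and 2 and -0.79 in replicates 3 and 4. Ikbke, a kinase of interferon induction, changed by 0.70 and -0.43, and the inhibitory receptor Pilra by 1.42 and -0.02. The actin-binding Cnn2 fell in both sets, by 0.23 and by 1.39 on the log2 scale.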

How the data were processed

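The deposited table holds raw counts per gene symbol, which per the submitters' processing notes the authors made with STAR and HTSeq on mm10. Tool versions and the strand setting were not given in the sources used here. Total RNA was made into stranded TruSeq libraries, per the labels' protocols. The counts were tested with edgeR 4.0.16 (R 4.3.3): TMM factors, a filter on low counts by group, a quasi-likelihood fit with group and replicate set over all 12 tolerant libraries, and Benjamini-Hochberg adjustment over 12492 genes, called at adjusted p under 0.05. SE is the log2 fold change divided by the square root of its F statistic. The set term follows from the way the replicates fall apart in the data. Same-numbered samples deviated together from their group means (correlations 0.771, 0.74, 0.727 and 0.774 for replicates 1 to 4). These values include the difference between the sets, so they do not show pairing by number. Within the sets the differences of replicates 1 and 2 and of replicates 3 and 4 correlated at 0.154 and 0.535. A replicate block was therefore tried as well. The labels do not state the pairing. A second fit held the interaction of group and set.

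Alternatives were RLE factors, other filters, DESeq2 1.42.0, limma-voom (limma 3.58.1), other terms, single sets and each library left out. The fit was also run on simulated counts with independent libraries, which cannot show how it behaves if same-numbered libraries vary together. Members and gene lists were chosen with earlier results of these data known. Genes named are 135 of the 306 given by a rule (fixed lead genes, smallest p in each direction at mean log2 CPM of at least 5, largest changes in CPM, up to 3 called members per class and direction, smallest interaction p) and 35 chosen after their values were seen. Of 23052 symbols, 22357 matched GENCODE vM21 directly and 478 by an older symbol. Of 170 named genes, 33 overlap another gene on their strand and 57 one on the other strand, where reads cannot be assigned with certainty. Promoters are RefSeq, GRCm38.p6. Some genes and 1 gene class are not reported here. The count table of the other experiment of the series was not used here. Library totals of 28.3 to 37.6 M counts limit the precision of low genes.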

Additional observations from a re-analysis of the deposited data

Results flagged for a closer look

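In 5 of 342 sets of 4 values (2 per named gene and the library totals), 1 library stood far from the other 3. Chance gives about 5% where all 4 values come from 1 population. Here replicates 1 and 2 stood apart from replicates 3 and 4, a pattern that is hard to flag. The count therefore does not measure how clean the libraries are. The largest gap was in Mki67, where replicate 4 with glutamine read 58.3 CPM and the others 28.5 to 31.4 CPM. Mdm2 stood at 243 CPM in replicate 4 without glutamine against 182 to 190 CPM, and Mthfd2 at 65.2 CPM in replicate 1 without glutamine against 74.3 to 75.6 CPM. Rrm2 read 0.779 CPM in replicate 2 without glutamine against 1.34 to 1.41 CPM. Rps15a read 171 CPM in replicate 1 with glutamine against 190 to 192 CPM.

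For 5 genes the test of the difference between the replicate sets gave the smallest p-values. The log2 fold change in replicates 3 and 4 minus that in replicates 1 and 2 was -1.44 for Pilra, -1.13 for Ikbke, -1.69 for Ccl6, -1.16 for Cnn2 and -1.3 for Pilrb2. Pilra and Pilrb2 encode paired immunoglobulin-like receptors and rose in replicates 1 and 2, where Pilrb2 went from 12.4 and 11.5 CPM to 26.6 and 29 CPM.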

How the results depend on the processing

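Beside the 3117 calls of the report, the fit with the replicate block, which pairs same-numbered libraries, called 2724 (1090 higher, 1634 lower) and changed the call of 6 of 170 named genes, all given with their results. Without block or set term 597 were called (289 higher, 308 lower), of which 267 moved by more than 1 log2 unit (75 higher, 192 lower). Replicates 3 and 4 alone called 1656 (535 higher, 1121 lower), and replicates 1 and 2 alone called 289 genes more than 1 log2 unit higher. Other settings called 2423 to 3559.

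Leaving out 1 library gave 2533 to 3598 calls (987 to 1536 higher, 1426 to 2062 lower) and 826 to 874 above 1 log2 unit (147 to 203 higher, 635 to 714 lower). The genes that differed between sets numbered 186 with only the 8 libraries and 53 to 2291 with 1 library left out.

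Ccl6 was positive with limma-voom (0.033), without block or set term (0.34), with the 8 libraries (0.062) and in replicates 1 and 2 alone (0.89), and ranged from -0.27 to 0.20 with 1 library left out. In replicates 3 and 4 alone Ikbke read -0.41, Jdp2 -0.11, Pilrb2 -0.060 and Thbs1 -0.38. With 1 library left out Ikbke ranged from -0.066 to 0.27 and Thbs1 from -0.11 to 0.29. None of these 5 genes was called in the report. Their causes were not tested. Depth limits the low genes most: 925 of the called genes had a mean log2 CPM below 2.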

Other observations

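Grouping the tested genes by the letters that begin their symbols, a description added after the data were seen, gave 90 groups of at least 15 genes and 3468 genes in all. Collagen genes (Col) had the highest share of falls among those read here, with 18 of 29 lower and 2 higher (62.1% lower, beside 14.4% of all tested genes). Kinesins (Kif), motors of which many act in the spindle, were lower in 14 of 32 and higher in 3. Both overlap the stromal and mitotic lists of the report and are no separate evidence.

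Outside those lists, aldehyde dehydrogenases (Aldh) were lower in 5 of 15. Among groups that rose more often than the 10.5% of all tested genes, the transporters with Mfsd symbols were higher in 6 of 18 and lower in 1, general transcription factors (Gtf) higher in 6 of 21, and autophagy genes with Atg symbols higher in 4 of 18. These groups were picked for their shares after the values were seen and carry no test.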
